A study of Mus musculus with 8 samples.

Results

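The 9 genes described here are the EGF family ligands *Areg*, *Ereg*, *Hbegf*, *Tgfa* and *Nrg1*, the receptors *Egfr*, *Erbb2* and *Erbb3*, and *Errfi1*, an inhibitor of these receptors. They were taken by gene symbol from a table of 54532 entries, in which the symbol of each of these 9 genes stood on a single entry. RNA sequencing (RNAseq) was performed on primary lung fibroblasts (pFBs) of female mice on the C57/black background, to learn how human IGFBP5 (hIGFBP5), a secreted protein that binds insulin-like growth factors, alters their transcriptome. There were 4 libraries of wild type (WT) mice and 4 of mice homozygous for the hIGFBP5 transgene (HOMO). HOMO mice carry a CRISPR/Cas9 knock-in that expresses hIGFBP5 from the elongation factor 1 a1 promoter in all tissues, so the transgene was not confined to fibroblasts. Cells of both groups grew out of minced lung in medium with 10% fetal bovine serum, were used between passages 3 and 7 and received no further treatment. The libraries are called WT1 to WT4 and HOMO1 to HOMO4. How many mice they came from is not given, so p-values measure the spread between libraries, which may be technical.

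The ligands of this family are made as membrane-anchored precursors, released by ADAM proteases and bound by receptor tyrosine kinases that signal as pairs. *Areg*, *Ereg*, *Hbegf* and *Tgfa* encode ligands of Egfr, and *Nrg1* encodes neuregulin 1, a ligand of Erbb3 and Erbb4. Erbb2 has no ligand of its own and acts as a partner, Erbb3 has little kinase activity and couples to PI3-kinase, and Errfi1, also called Mig6, is induced by the pathway and blocks the Egfr kinase. In the lung, these factors pass signals between epithelium and mesenchyme, and *Tgfa* overexpression is a known model of lung fibrosis.

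The authors deposited gene counts, and levels are given here as CPM, which are counts scaled to the size of each library, here sizes corrected with edgeR's TMM method. Totals ranged from 17236521 to 29028769 counts in WT and from 19009027 to 31987790 in HOMO, and a count of 3, taken as the floor of detection, stood for 0.0908 to 0.172 CPM. WT1 with WT2, HOMO1 with HOMO2, and HOMO3 with HOMO4 were near-identical, with biological coefficients of variation of 4.71 to 7.65% against 30.0 to 56.4% for other pairs within a genotype. All 9 fibroblast markers were detected, with summed levels of 12937 to 16618 CPM in WT and 14002 to 24381 CPM in HOMO, most of it *Col1a1*, *Col1a2* and *Vim*. Their log2 fold changes were positive in 4 and negative in 5, and the 2 called genes fell, *Pdgfrb* by 0.97 (SE 0.22, edgeR adjusted p = 0.0251) and *Vim* by 0.65 (SE 0.17, edgeR adjusted p = 0.0430) on the log2 scale. The 6 macrophage markers summed to 112 and 144 CPM in WT1 and WT2, 1904 and 1123 CPM in WT3 and WT4, and 23.8 to 160.1 CPM in HOMO. The transgene itself was not analysed here.

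The sequences just upstream of the start sites are shown for *Areg*, the member that was not detected above the floor, for *Errfi1*, the inhibitor, and for *Tgfa* and *Egfr*, a ligand and its receptor that were higher in HOMO on average. Each is the 250 bases before a RefSeq start site on GRCm38.p6, written 5′ to 3′ on the plus strand, the strand of all 4 genes. Capitals mark the cAMP response element TGACGTCA, the TATA box TATAAA and the GC box GGGCGG on either strand.
Areg (chr5:91139349-91139598): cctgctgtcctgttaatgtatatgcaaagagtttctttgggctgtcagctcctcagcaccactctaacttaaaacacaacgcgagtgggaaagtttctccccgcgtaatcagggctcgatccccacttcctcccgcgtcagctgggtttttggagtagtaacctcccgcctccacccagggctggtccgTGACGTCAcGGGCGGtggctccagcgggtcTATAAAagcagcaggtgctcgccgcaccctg
Errfi1 (chr4:150854820-150855069, upstream of the later of its 2 start sites): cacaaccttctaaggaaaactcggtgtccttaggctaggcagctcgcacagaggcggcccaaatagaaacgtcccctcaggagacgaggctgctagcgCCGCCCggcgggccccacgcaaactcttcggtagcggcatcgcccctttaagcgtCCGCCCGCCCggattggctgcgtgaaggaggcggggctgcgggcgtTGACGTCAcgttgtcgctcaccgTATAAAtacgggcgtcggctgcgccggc
Tgfa (chr6:86194972-86195221): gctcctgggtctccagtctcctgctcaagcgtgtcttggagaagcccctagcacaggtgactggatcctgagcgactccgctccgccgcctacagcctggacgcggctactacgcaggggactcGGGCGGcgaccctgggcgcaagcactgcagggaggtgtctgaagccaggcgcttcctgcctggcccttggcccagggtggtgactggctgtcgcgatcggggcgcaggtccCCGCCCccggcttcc
Egfr (chr11:16751953-16752202): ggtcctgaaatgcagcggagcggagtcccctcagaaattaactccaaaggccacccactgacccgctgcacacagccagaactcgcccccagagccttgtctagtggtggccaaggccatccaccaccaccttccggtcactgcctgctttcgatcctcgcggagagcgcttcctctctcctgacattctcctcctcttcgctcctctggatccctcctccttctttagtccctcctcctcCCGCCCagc
The *Areg* window held a cAMP response element 61 to 54 bases and a TATA box 31 to 26 bases upstream of the start site. The *Errfi1* window held both at similar places, 51 to 44 and 28 to 23 bases upstream. Of 32851 windows of this length, 1.55% held the cAMP response element, 12.4% the TATA box and 0.119% both (39 windows), and the pair was noticed after the sequences were seen. GC boxes, which 32.7% of windows held, were found 3 times in *Errfi1*, with 1 pair overlapping, 2 times in *Tgfa* and 1 time each in *Areg* and *Egfr*. The windows were GC-rich at 57.2% (*Areg*), 64.8% (*Errfi1*), 69.2% (*Tgfa*) and 60.8% (*Egfr*), against a median of 52.4%. The window of the earlier *Errfi1* start site (chr4:150853546-150853795) had 38% GC and held none of these motifs, so the matches in *Errfi1* belong to 1 of its 2 windows. The AP-1 site TGANTCA, held by 6.75% of windows, was not among these letters. A match is a string of letters and not a measured binding site. Windows were matched for 5 of the 9 members, the other being *Erbb2*, which held none of these motifs.

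*Erbb3* was the 1 member called as upregulated in HOMO, from a very low level, and none was called as downregulated. *Egfr*, *Erbb2* and *Tgfa* were higher in HOMO and *Ereg* was lower on average, but none of these passed the threshold. *Areg* was at the floor. Genes were compared between genotypes with edgeR's two-sided quasi-likelihood F test and called at the study's thresholds, which ask for an adjusted p (Benjamini-Hochberg) under 0.05 together with a log2 fold change beyond 0.6 in either direction. Of the 9 members, 8 passed the filter for the test, 5 with a positive and 3 with a negative log2 fold change (HOMO over WT). The 1 call of 8 (12.5%) stands beside 12.1% of all 14150 tested genes called in either direction, 5.94% higher and 6.18% lower in HOMO. At an unadjusted p under 0.05 stood 4 of the 8, beside 32.3% of all tested genes, and in 3 of the 8 the WT and HOMO ranges were apart, beside 27.3% of all tested genes. The median log2 fold change was 0.50 over the members and −0.04 over all tested genes. With the counts of the near-identical libraries summed, which leaves 3 WT and 2 HOMO units, edgeR called 0 genes of the whole table, 2057 had an unadjusted p under 0.05, and 1 of these was a member.

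**Figure D1:**
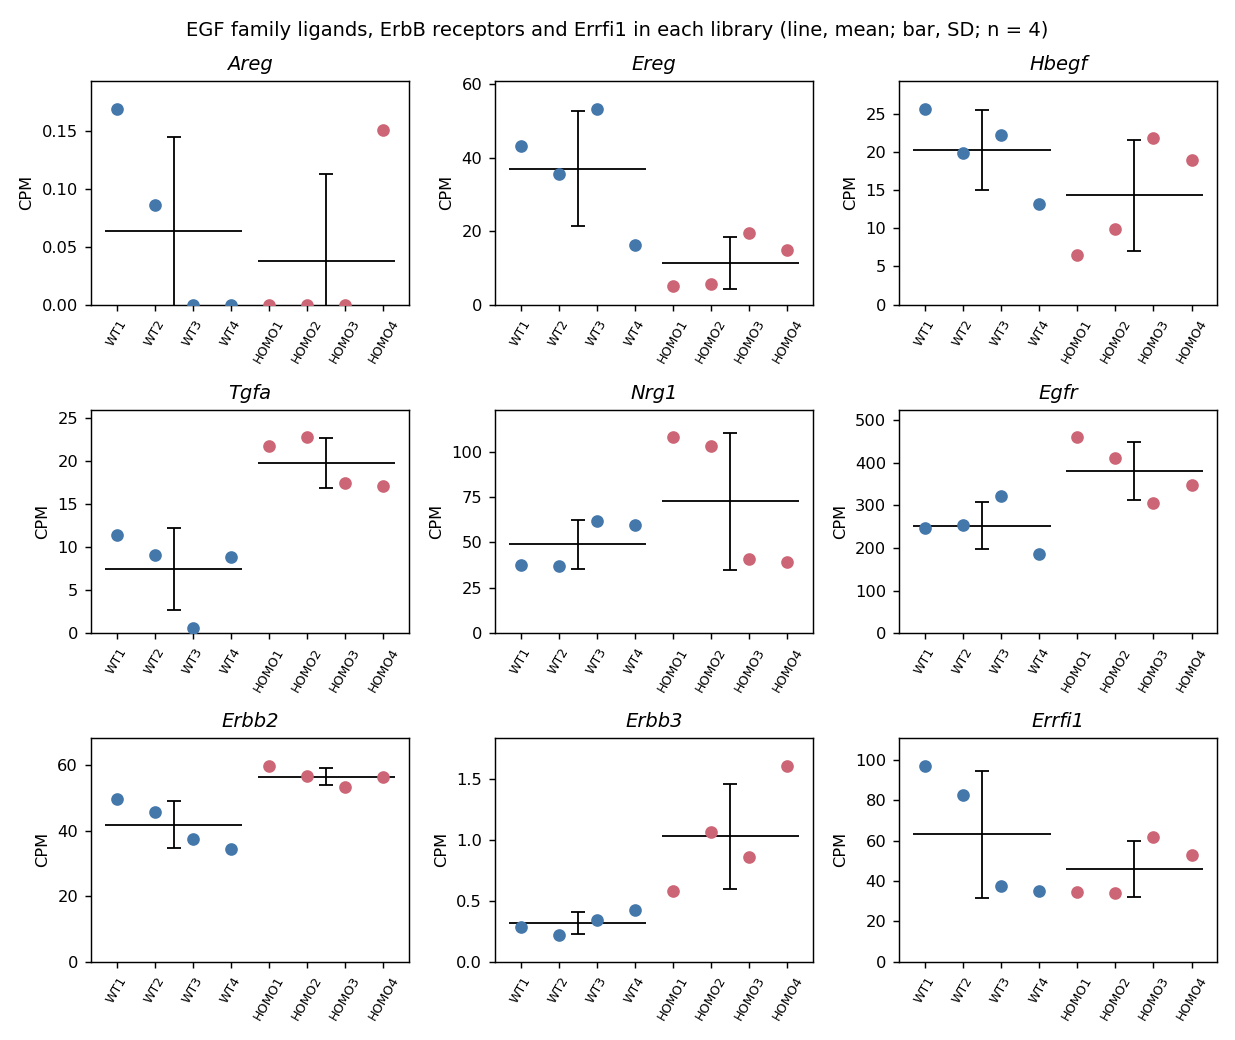
CPM of the 9 members in each of the 8 libraries (points, with WT in blue and HOMO in red), with the mean of each genotype (line) and its SD (bar, n = 4), on linear axes that start at 0. The genotypes do not overlap for *Tgfa*, *Erbb2* and *Erbb3*, WT3 has 0.574 CPM of *Tgfa*, and HOMO1 and HOMO2 stand apart from HOMO3 and HOMO4 for *Ereg*, *Hbegf* and *Nrg1*.

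Among the ligands, *Areg* encodes amphiregulin (chr5:91139599-91148432). WT1 to WT4 held 3, 2, 0 and 0 of its reads, and HOMO1 to HOMO4 held 0, 0, 0 and 3. No library exceeded the floor of 3 counts, so a difference between genotypes was not detectable at this depth (two-sided exact permutation p = 0.714 on CPM over 70 assignments, whose smallest possible p is 0.0286).

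*Ereg* encodes epiregulin and lies next to *Areg* (chr5:91074622-91093646). Its levels were 43.1, 35.7, 53.3 and 16.2 CPM in WT1 to WT4. They were 5.04, 5.69, 19.5 and 14.9 CPM in HOMO1 to HOMO4. The first pair of HOMO libraries was lowest, and HOMO3 exceeded WT4, so the genotypes overlapped. The mean was 37.1 ± 15.7 CPM in WT and 11.3 ± 7.10 CPM in HOMO (SD, n = 4 each). The log2 fold change of −1.72 (standard error, SE, 0.52) was the most negative among the members and missed the threshold (edgeR adjusted p = 0.0602). DESeq2 called it, with a log2 fold change of −1.72 (adjusted p = 0.00688). Macrophages are a known source of this ligand. Of the libraries with high macrophage markers, WT3 had the highest and WT4 the lowest *Ereg* level in WT. Within HOMO, these markers summed to 25.4 and 23.8 CPM in HOMO1 and HOMO2. They summed to 137.9 and 160.1 CPM in HOMO3 and HOMO4, where *Ereg* was also higher. The part of macrophages in the difference between genotypes was not tested. Without WT3 and WT4, chosen for omission after the markers were seen, the log2 fold change was −1.81 (edgeR adjusted p = 0.0438). Of 8 fits that each left out 1 library, only that without WT4 called *Ereg*, with edgeR adjusted p-values of 0.0384 to 0.157. It was not called with a block for the replicate number (edgeR adjusted p = 0.100) or with near-identical libraries summed (edgeR adjusted p = 0.390). In bulk RNA, fewer cells that express a gene and less RNA per cell cannot be told apart.

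*Hbegf* encodes heparin-binding EGF-like growth factor (chr18:36504927-36515805). Its levels were 25.6, 19.9, 22.2 and 13.2 CPM in WT1 to WT4. HOMO1 to HOMO4 had 6.51, 9.95, 21.7 and 18.9 CPM. HOMO1 and HOMO2 lay below every WT library, while HOMO3 and HOMO4 lay within the WT range. Between genotypes it had a log2 fold change of −0.50 (SE 0.39, edgeR adjusted p = 0.403), and the spread within HOMO, 3.34-fold from lowest to highest, was larger than the difference between the means. On chromosome 18, 376 other tested genes had a median log2 fold change of −0.31. What part of the *Hbegf* difference this shift holds was not tested.

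*Tgfa* encodes transforming growth factor alpha (chr6:86195223-86275719). Levels in WT1 to WT4 were 11.4, 9.05, 0.574 and 8.86 CPM. Those in HOMO1 to HOMO4 were 21.8, 22.8, 17.4 and 17.1 CPM, all above every WT library. In WT3 it was counted 10 times, against 203 to 229 times in the other WT libraries. The mean was 7.48 ± 4.75 CPM in WT and 19.8 ± 2.92 CPM in HOMO (SD, n = 4 each). Its log2 fold change of 1.40 (SE 0.65) did not pass (edgeR adjusted p = 0.172). Without WT3 it was smaller, 1.01, and was called (edgeR adjusted p = 0.0104), with the remaining WT libraries at 8.86 to 11.4 CPM. No other fit among the 8 that each left out 1 library called *Tgfa*, and their edgeR adjusted p-values reached 0.315. With near-identical libraries summed it was not called (edgeR adjusted p = 0.505).

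*Nrg1* spans more than a megabase of chromosome 8 (chr8:31814551-32884029). WT1 to WT4 had 37.6, 36.9, 61.7 and 59.7 CPM. HOMO1 to HOMO4 had 107.7, 102.9, 40.7 and 39.4 CPM. HOMO1 and HOMO2 were the highest of all libraries, 2.63-fold above the mean of HOMO3 and HOMO4, which lay within the WT range. Its log2 fold change was 0.57 (SE 0.38, edgeR adjusted p = 0.334). The 789 tested genes of chromosome 8 had a median log2 fold change of 0.37, and what part of the *Nrg1* difference this shift holds was not tested.

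Among the receptors, *Egfr* (chr11:16752203-16918158) was the most abundant member. The WT libraries held 246.6, 252.9, 320.6 and 186.2 CPM. The HOMO libraries held 458.7, 411.5, 305.5 and 347.4 CPM. HOMO3 was below WT3, and the other HOMO libraries lay above every WT library. The mean was 251.6 ± 55.0 CPM in WT and 380.8 ± 67.8 CPM in HOMO (SD, n = 4 each), for a log2 difference of 0.60 (SE 0.20) that did not pass (edgeR adjusted p = 0.0812). Without WT3 it was 0.73 and was called (edgeR adjusted p = 0.0297). This was the 1 call in 8 fits that each left out 1 library, with edgeR adjusted p-values up to 0.213. With near-identical libraries summed, *Egfr* was not called (edgeR adjusted p = 0.462).

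*Erbb2* lies on the same chromosome (chr11:98412470-98437716). WT1 to WT4 had 49.7, 45.7, 37.5 and 34.4 CPM. HOMO1 to HOMO4 had 59.7, 56.6, 53.4 and 56.2 CPM, all above every WT library, and varied by 1.12-fold from lowest to highest. The log2 fold change of 0.43 (SE 0.15) was below the fold threshold and missed the adjusted threshold (edgeR adjusted p = 0.0803).

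*Erbb3* (chr10:128567523-128589652) rose in HOMO. Its counts in WT1 to WT4 were 5, 5, 6 and 11, or 0.281, 0.214, 0.344 and 0.426 CPM. Its counts in HOMO1 to HOMO4 were 13, 35, 17 and 32, or 0.580, 1.06, 0.862 and 1.60 CPM. Every HOMO library lay above every WT library, and all lay above the floor. The mean was 0.317 ± 0.0901 CPM in WT and 1.03 ± 0.433 CPM in HOMO (SD, n = 4 each), a 3.19-fold difference and a log2 fold change of 1.67 (SE 0.43, edgeR adjusted p = 0.0371). Of 8 fits that each left out 1 library, the 2 without WT3 or WT4 called it, and the adjusted p ranged from 0.0421 to 0.111. With near-identical libraries summed, the log2 fold change was 1.65 (edgeR adjusted p = 0.376).

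Epithelial cells express *Erbb3* strongly, and a few epithelial transcripts were present at a similar level. *Cdh1*, which encodes E-cadherin, had 0.0563, 0.343, 0 and 0.503 CPM in WT1 to WT4 and 1.16, 1.42, 1.88 and 2.21 CPM in HOMO1 to HOMO4, and was called (log2 fold change 2.77, SE 0.76, edgeR adjusted p = 0.0462). *Epcam*, the epithelial adhesion molecule, was at 2.26 CPM in HOMO4 and at 0 to 0.0387 CPM in the other 7 libraries. *Krt8*, which encodes a simple keratin, was at 4.81 CPM in HOMO4 and at 0 to 0.918 CPM elsewhere. The surfactant gene *Sftpc* was at 1.45 CPM in HOMO2, 5.02 CPM in HOMO3 and 0 to 0.150 CPM elsewhere, and *Sftpb* at 0.303 and 0.760 CPM in HOMO2 and HOMO3 and at 0 elsewhere. *Cldn3* and *Cldn4* were highest in HOMO4, at 0.201 and 0.301 CPM, against at most 0.0574 and 0.0774 CPM in WT. *Krt19* and *Krt18* were highest in WT libraries. *Krt19* had 35.4, 28.4, 3.27 and 0.581 CPM in WT1 to WT4 and 1.24 to 2.67 CPM in HOMO (log2 fold change −3.06, SE 1.05, edgeR adjusted p = 0.0856). *Krt18* was at 4.65 CPM in WT3, 0.225 to 0.515 CPM in the other WT libraries and 1.47 to 2.81 CPM in HOMO. Different epithelial transcripts were thus highest in different libraries of both genotypes, and *Cdh1* was above every WT library in all 4 HOMO libraries. All 9 epithelial markers exceeded the floor in at least 1 library, and none was at 0 in all of them. They summed to 1.51 to 35.8 CPM in WT, mostly *Krt19* in WT1 and WT2, and to 6.60 to 13.9 CPM in HOMO. Their part in the *Erbb3* difference was not tested.

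**Figure D2:**
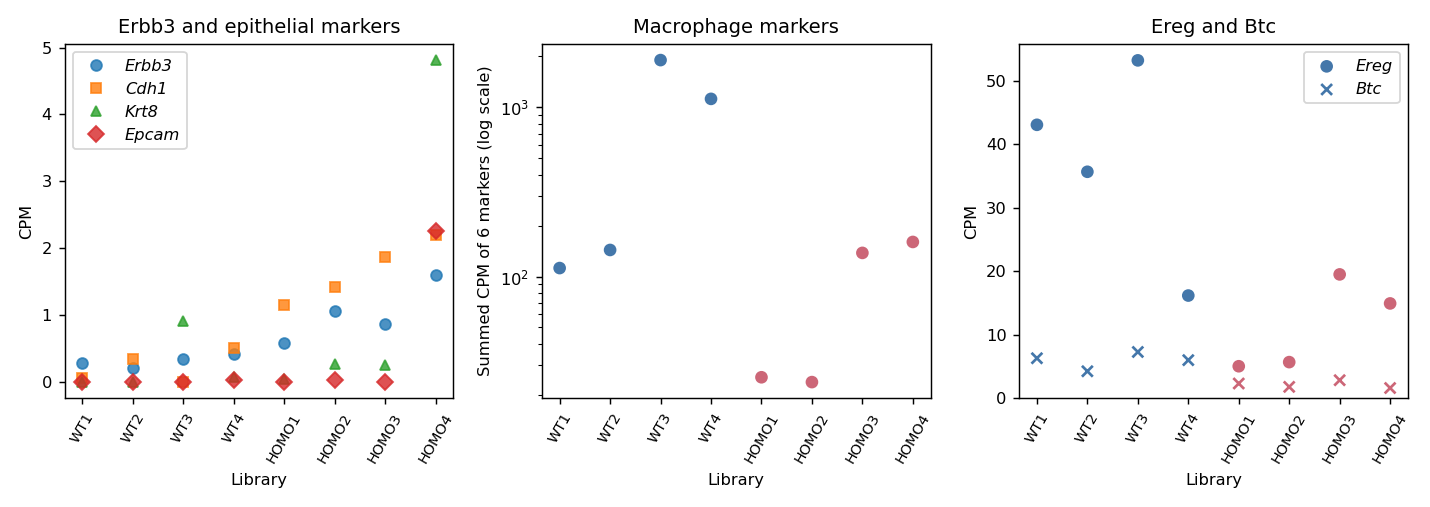
Left, CPM of *Erbb3* and the epithelial markers *Cdh1*, *Krt8* and *Epcam* in each library. Not plotted are *Krt18* and *Krt19*, which were highest in WT libraries, and *Sftpc*, *Sftpb*, *Cldn3* and *Cldn4*, which were highest in HOMO libraries. Middle, summed CPM of 6 macrophage markers (log axis), highest in WT3 (1904 CPM) and WT4 (1123 CPM). Right, CPM of *Ereg* (dots) and *Btc* (crosses), with WT in blue and HOMO in red in the middle and right plots.

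*Errfi1*, the inhibitor (chr4:150853919-150868892), differed more among the libraries of 1 genotype than between the genotype means. WT1 to WT4 had 97.2, 82.8, 37.5 and 35.1 CPM. HOMO1 to HOMO4 had 34.8, 34.1, 62.0 and 52.8 CPM. WT1 and WT2 were highest, 2.48-fold above the mean of WT3 and WT4, and HOMO1 and HOMO2 were lowest. The log2 fold change was −0.46 (SE 0.37, edgeR adjusted p = 0.427). Without WT3 and WT4 it was −0.97 (edgeR adjusted p = 0.0314), so this comparison depends on which WT libraries are used. Genes of chromosome 4 stood 0.36 higher on the log2 scale in WT4 than in the other WT libraries, and *Errfi1* was not higher there.

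Levels of different genes were compared as CPM per kilobase of merged exons, a description with no test. In WT the order of the member levels was *Egfr* at 22.2 ± 4.85, *Errfi1* at 17.6 ± 8.81, *Ereg* at 8.98 ± 3.80 and *Erbb2* at 8.03 ± 1.36 CPM per kilobase (SD, n = 4). Lower in WT came *Nrg1* at 4.73 ± 1.31, *Hbegf* at 4.18 ± 1.08, *Tgfa* at 1.15 ± 0.731 and *Erbb3* at 0.0526 ± 0.0150 CPM per kilobase (SD, n = 4). The ranges of *Egfr* and *Errfi1*, of *Errfi1* and *Ereg*, of *Ereg* and *Erbb2*, and of *Nrg1* and *Hbegf* overlapped, so these neighbours were not separated by the spread between libraries. In HOMO the order was *Egfr* at 33.6 ± 5.99, *Errfi1* at 12.8 ± 3.85, *Erbb2* at 10.8 ± 0.500 and *Nrg1* at 7.02 ± 3.65 CPM per kilobase (SD, n = 4). *Tgfa* at 3.05 ± 0.450, *Hbegf* at 2.96 ± 1.49, *Ereg* at 2.74 ± 1.72 and *Erbb3* at 0.171 ± 0.0719 CPM per kilobase (SD, n = 4) followed. In HOMO, *Errfi1*, *Erbb2* and *Nrg1* had ranges that overlapped their neighbours, as did *Tgfa*, *Hbegf* and *Ereg*. With the length of the longest transcript in place of merged exons, *Nrg1* in WT was at 9.05 ± 2.51 CPM per kilobase (SD, n = 4) and stood between *Errfi1* and *Ereg* on average. By that length, *Nrg1* in HOMO was at 13.4 ± 6.97 CPM per kilobase, above *Erbb2* at 11.3 ± 0.520 (SD, n = 4). *Hbegf* was then at 6.995 ± 1.81 in WT and 4.94 ± 2.50 CPM per kilobase in HOMO, where it stood above *Tgfa* at 4.37 ± 0.646 (SD, n = 4). The order of the ligands therefore depends on the length used, while *Egfr* and *Errfi1* had the highest means by both.

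**Figure D3:**
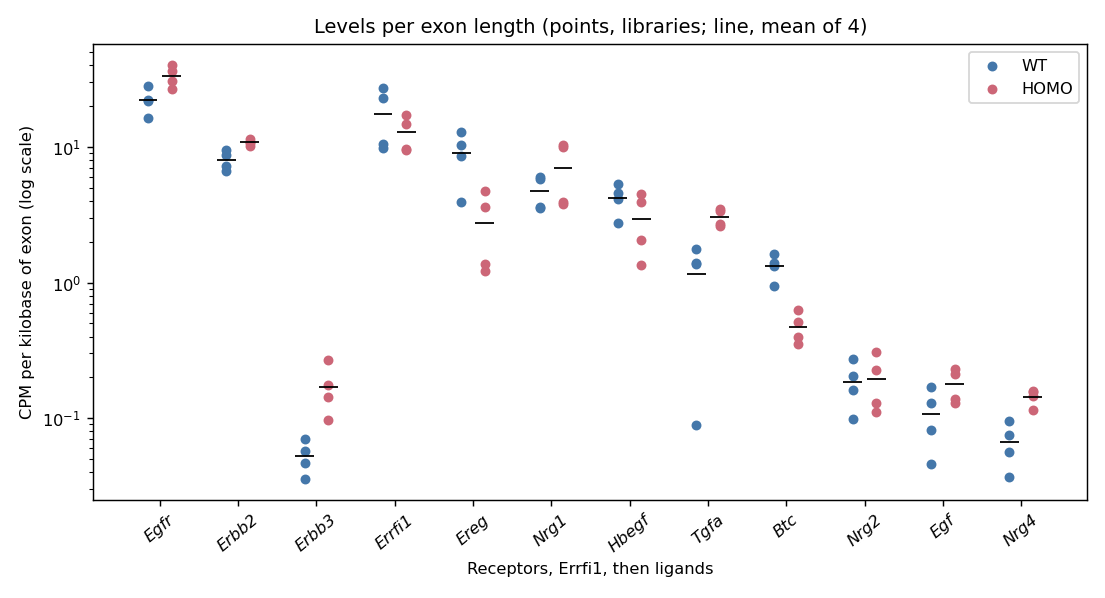
CPM per kilobase of exon (log axis) for the receptors, *Errfi1* and the ligands, with each library as a point and the mean of 4 as a line, WT in blue and HOMO in red. *Egfr* is the highest in both genotypes, *Erbb3* lies far below the other receptors, and genes listed at 0 in any library are left out.

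Within the 5 ligands, *Ereg* had the largest mean share of the level per kilobase of merged exons in WT and *Nrg1* in HOMO. With the length of the longest transcript, *Nrg1* had the largest mean share in both genotypes, at 34.7 ± 12.1% in WT beside 32.5 ± 9.72% for *Ereg*, and at 50.6 ± 20.5% in HOMO beside 11.5 ± 8.14% (SD, n = 4). The values that follow are per merged exons. Their summed level was 19.1 ± 4.26 CPM per kilobase in WT and 15.8 ± 1.20 CPM per kilobase in HOMO (SD, n = 4 each). *Ereg* made up 49.1, 48.6, 54.8 and 28.4% of the sum in WT1 to WT4. In HOMO1 to HOMO4 it made up 7.47, 8.16, 29.8 and 25.7%, and only HOMO3 exceeded a WT library, namely WT4. *Nrg1* made up 17.1, 20.1, 25.3 and 41.8% in WT1 to WT4. Its shares in HOMO1 to HOMO4 were 63.8, 58.9, 24.8 and 27.0%, so HOMO3 and HOMO4 lay within the WT range. *Tgfa* made up 0.375 to 9.91% in WT and 16.96 to 20.8% in HOMO, with no overlap. *Hbegf* made up 21.8 ± 2.61% in WT and 19.2 ± 10.4% in HOMO (SD, n = 4 each). Shares of a sum are not independent of each other, and the shares were not tested.

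**Figure D4:**
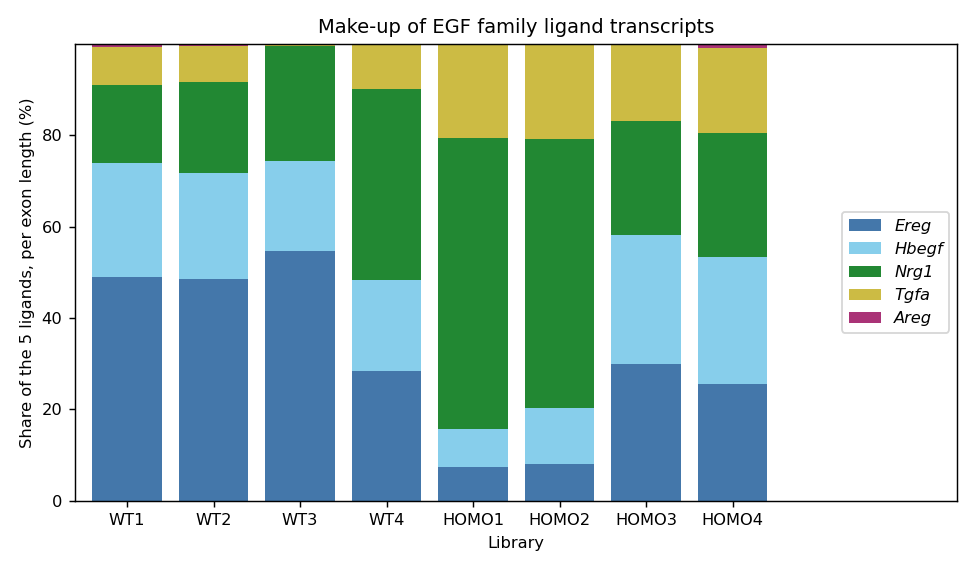
Share of each ligand in the summed CPM per kilobase of merged exons of *Ereg*, *Hbegf*, *Nrg1*, *Tgfa* and *Areg*, as stacked bars that reach 100% in each library. *Ereg* is the largest share in WT1 to WT3 (48.6 to 54.8%), *Nrg1* is the largest in HOMO1 and HOMO2 (63.8 and 58.9%), and the *Tgfa* share is 16.96 to 20.8% in all HOMO libraries.

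Among the receptors, *Egfr* made up most of the level per length in both genotypes, and the sum was higher in every HOMO library. *Egfr* made up 73.0 ± 4.53% of the summed level per length in WT and 75.0 ± 2.63% in HOMO (SD, n = 4 each). The sum was 30.3 ± 5.20 CPM per kilobase in WT and 44.6 ± 6.43 CPM per kilobase in HOMO (SD, n = 4 each), and the lowest HOMO library (37.4) lay above the highest WT library (35.6). The ratio of *Ereg* to *Hbegf* per length, 1 of 6 ratios computed, was 1.44 to 2.81 in WT and 0.669 to 1.05 in HOMO. The ratio of *Egfr* to *Errfi1* was 0.803, 0.966, 2.70 and 1.68 in WT1 to WT4 and 4.17, 3.82, 1.56 and 2.08 in HOMO1 to HOMO4, and overlapped.

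Of the other 7 genes of the family, 4 were tested and 1 (25%), *Btc*, was called, beside 12.1% of all tested genes. *Btc*, which encodes betacellulin, a ligand of Egfr and Erbb4, fell in HOMO and lies on chromosome 5 in the same region as *Ereg* and *Areg* (chr5:91357261-91402994). Its WT levels were 6.30, 4.25, 7.29 and 6.0 CPM. Its HOMO levels were 2.32, 1.79, 2.84 and 1.60 CPM, all below every WT library. Its level was 5.96 ± 1.27 CPM in WT and 2.14 ± 0.558 CPM in HOMO (SD, n = 4 each), for a log2 difference of −1.48 (SE 0.29, edgeR adjusted p = 0.0153). It missed the threshold without HOMO1 (adjusted p = 0.0571) or HOMO2 (adjusted p = 0.0654), and with near-identical libraries summed (edgeR adjusted p = 0.308).

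*Nrg4*, a neuregulin that binds Erbb4, was at 0.225 to 0.581 CPM in WT and 0.696 to 0.963 CPM in HOMO, without overlap, and did not pass (log2 fold change 1.10, SE 0.37, edgeR adjusted p = 0.0844). *Egf*, the founding ligand, was at 0.516 to 1.93 CPM in WT and 1.45 to 2.59 CPM in HOMO (log2 fold change 0.72, SE 0.43, edgeR adjusted p = 0.283). *Nrg2*, another neuregulin, was at 0.310 to 0.861 CPM in WT and 0.351 to 0.968 CPM in HOMO (log2 fold change 0.10, SE 0.47, edgeR adjusted p = 0.906). The ligand gene *Epgn* had at most 3 counts and the receptor gene *Erbb4* at most 1 count in any library, and *Nrg3* was listed at 0 in all 8. Of the receptors that bind neuregulin 1, *Erbb3* was thus detected above the floor and *Erbb4* was not.

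The wider pathway was described by lists of genes that release the ligands, attenuate the receptors, couple to them or respond early to EGF. With the other family genes these lists held 58 genes, of which 53 were tested and 6 (11.3%) were called, 4 higher and 2 lower in HOMO, beside the 12.1% of all tested genes. Of 9 genes of ligand shedding, all tested, 1 rose and 1 fell. *Adam17*, the protease that releases most Egfr ligands, rose from 37.9, 42.0, 54.6 and 56.4 CPM in WT1 to WT4 to 98.0, 99.4, 62.6 and 66.02 CPM in HOMO1 to HOMO4 (log2 fold change 0.77, SE 0.21, edgeR adjusted p = 0.0464). *Rhbdf2*, which encodes iRhom2, a partner that helps Adam17 to mature and reach the cell surface, fell from 50.1, 50.2, 35.9 and 26.2 CPM to 17.97, 20.1, 19.2 and 23.0 CPM (log2 fold change −1.02, SE 0.22, edgeR adjusted p = 0.0231). In both genes the genotypes did not overlap. Of the 8 fits that left out 1 library, *Adam17* was called in 2, those without WT3 or WT4, and its adjusted p (edgeR) ranged from 0.0410 to 0.139. *Rhbdf2* was called in 3, those without WT1, WT3 or WT4, and its adjusted p (edgeR) ranged from 0.00815 to 0.0864. Both calls were also lost with the replicate block (edgeR adjusted p = 0.141 for *Adam17* and 0.0814 for *Rhbdf2*) and with near-identical libraries summed (0.390 and 0.386), and that of *Adam17* without a filter on low counts (0.0566). The other 7 shedding genes had log2 fold changes of −0.57 to 0.31 and edgeR adjusted p-values of 0.0814 to 0.980. Among them was *Rhbdf1*, a relative of *Rhbdf2* named after its values were seen. It was at 70.7 to 86.4 CPM in WT and 88.1 to 105.3 CPM in HOMO, without overlap (log2 fold change 0.31, SE 0.12, edgeR adjusted p = 0.125).

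Of 14 genes of receptor attenuation and trafficking, 13 were tested and 1 rose (7.69%), beside 12.1% of all tested genes called in either direction. *Cblb*, which encodes a ubiquitin ligase of the Cbl family that marks active receptors for degradation, had 20.5, 19.2, 11.2 and 16.5 CPM in WT1 to WT4. In HOMO1 to HOMO4 it had 55.3, 53.2, 51.5 and 48.5 CPM, a 3.09-fold difference (log2 fold change 1.63, SE 0.19, edgeR adjusted p = 0.00299). *Lrig1* and *Lrig3*, named after their values were seen, encode membrane proteins of a family in which Lrig1 lowers ErbB receptor levels. They passed the adjusted threshold but not the fold threshold, as did 181 (1.28%) of all tested genes, with log2 fold changes of −0.56 (SE 0.14, edgeR adjusted p = 0.0372) and −0.51 (SE 0.13, edgeR adjusted p = 0.0330). *Lrig1* was at 91.2 to 136.1 CPM in WT and 76.7 to 83.5 CPM in HOMO, and *Lrig3* at 28.0 to 29.2 CPM in WT and 17.5 to 21.2 CPM in HOMO, in both cases without overlap. Over the alternative fits (edgeR, DESeq2 or limma-voom), their adjusted p-values reached 0.438 and 0.444. *Lrig2*, of the same family and list, went the other way without passing (log2 fold change 0.60, SE 0.21, edgeR adjusted p = 0.0904). It was at 11.7 to 17.3 CPM in WT and 18.3 to 26.3 CPM in HOMO, without overlap.

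Of 10 receptor-proximal adaptors, 9 were tested and 2 rose (22.2%), beside 12.1% of all tested genes called in either direction and 5.94% called higher. *Gab1*, which encodes a docking protein that recruits PI3-kinase and Shp2 to active receptors, had 40.8, 47.8, 40.5 and 39.3 CPM in WT1 to WT4. In HOMO1 to HOMO4 it had 143.5, 146.1, 115.4 and 107.2 CPM, a 3.04-fold difference (log2 fold change 1.60, SE 0.15, edgeR adjusted p = 0.00111), and it lies on chromosome 8, whose median log2 fold change was 0.37. *Eps8*, which encodes a substrate of Egfr that links it to Rac and actin, had 142.6, 152.5, 77.8 and 144.0 CPM in WT1 to WT4 and 288.6, 276.9, 237.3 and 233.4 CPM in HOMO1 to HOMO4 (log2 fold change 1.00, SE 0.22, edgeR adjusted p = 0.0221). Every HOMO library lay above every WT library for *Cblb*, *Gab1* and *Eps8*. Both *Cblb* and *Gab1* were called in all 8 fits that left out 1 library and in 16 of 17 alternatives, the exception being the summed libraries, with edgeR adjusted p-values of 0.201 and 0.155. *Eps8* lost the call without HOMO1 (edgeR adjusted p = 0.0769), without HOMO2 (edgeR adjusted p = 0.0753) and with the summed libraries (edgeR adjusted p = 0.347).

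The early response to EGF was described by 18 genes, such as transcription factors and feedback inhibitors of the MAPK cascade. All were tested and 0 were called by edgeR in the main fit, beside 12.1% of all tested genes. At an unadjusted p under 0.05 stood 4 of the 18, beside 32.3% of all tested genes. The log2 fold change was positive in 14 and negative in 4, beside 47.3% of all tested genes with a positive one, with a median of 0.27 against −0.04 over all, a range of −1.03 to 1.73 and edgeR adjusted p-values of 0.101 to 0.964. These directions did not describe all HOMO libraries alike. The mean CPM of HOMO3 and HOMO4 exceeded that of HOMO1 and HOMO2 in each of the 18 genes except *Spred1* and *Phlda1*, by up to 10.9-fold (*Egr3*). The highest log2 fold change was that of *Egr1*, an early growth response transcription factor named after its values were seen. It had 106.0, 149.7, 43.7 and 25.2 CPM in WT1 to WT4 and 129.6, 123.1, 450.0 and 375.6 CPM in HOMO1 to HOMO4, so HOMO1 and HOMO2 lay within the WT range and HOMO3 and HOMO4 above it (log2 fold change 1.73, SE 0.64, edgeR adjusted p = 0.103). The study, whose test was DESeq2, reported *Egr1* as upregulated. Of the 18 genes, DESeq2 called 1 here, limma-voom with sample weights 4, and the fit without both WT3 and WT4 3. The fits without WT3 or WT4 alone called 1 each, and that with near-identical libraries summed called 0.

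**Figure D5:**
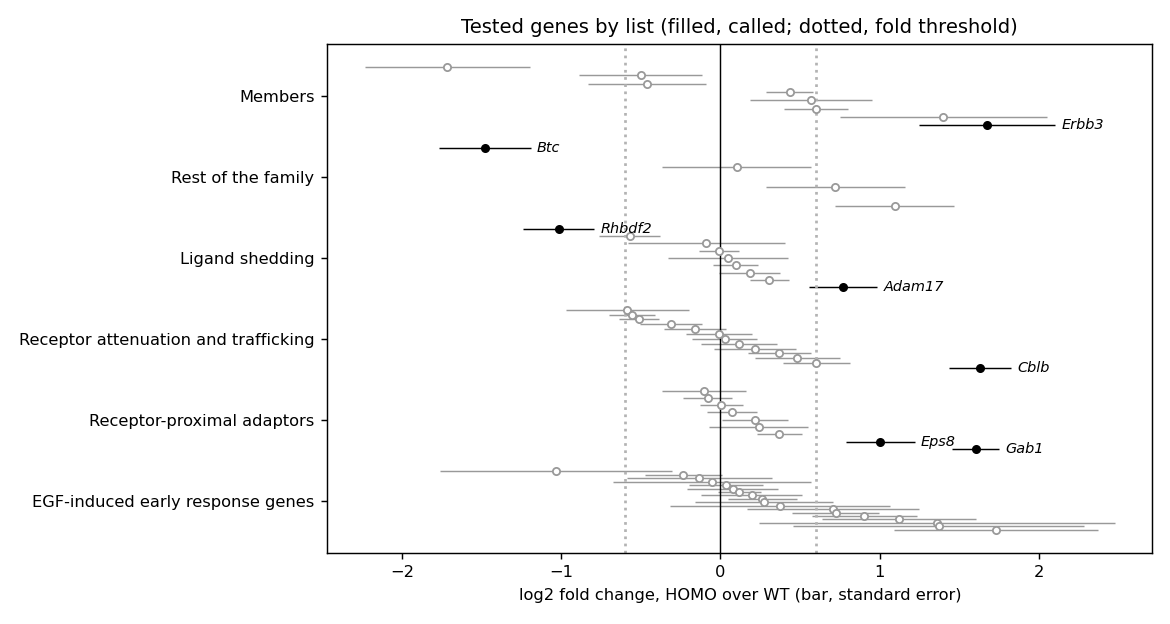
Log2 fold change (HOMO over WT) with its standard error for each tested gene of the members and the 5 other lists, sorted within each list. Filled points are called genes and dotted lines the fold threshold of 0.6, and *Cblb* (1.63), *Gab1* (1.60) and *Btc* (−1.48) are, with *Erbb3* (1.67), the called genes furthest from 0.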

How the data were processed

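RNAseq reads were trimmed with fastp, aligned to mm10 with STAR and counted per gene with featureCounts by the authors, who deposited raw counts without normalization. Library construction used poly-A selected RNA and paired-end sequencing, and the strand setting of the counting is not given in the sources used here. The deposited table carries a label that speaks of a removed outlier, and neither the library nor its group is given in the sources used here. All 8 libraries were used and grouped by the genotype in their labels. The members and gene lists were chosen with earlier results of these data known.

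Tests were run in R (4.3.3) using edgeR (4.0.16), limma (3.58.1) or DESeq2 (1.42.0). Python (3.11.15) with pandas (2.3.3), scipy (1.17.1) and matplotlib (3.10.9) served for the rest. Of 54532 entries, 14150 passed edgeR's filterByExpr by genotype. The main test was edgeR's quasi-likelihood F test after TMM normalization with Benjamini-Hochberg adjustment over these genes, in place of the DESeq2 test of the study, which is an alternative. The standard error of a log2 fold change was its size over the root of F, and a prior count of 2 was used for log2 CPM. Floors cover counting error only. Gene positions and exon lengths are those of GENCODE for GRCm38, the assembly also called mm10, and 111 listed genes were matched. Exons of opposite-strand genes covered 3.42% of *Ereg*, 1.82% of *Tgfa*, 4.66% of *Nrg1* and 0.173% of *Erbb2*. Upstream sequences are from RefSeq. All members and the other family genes were named, and of the remaining lists the called genes; 1 gene whose symbol stood on more than 1 entry was left out. The fit was tested on simulated data. Alternatives were DESeq2, normalization by upper quartile or RLE, dropping the filter, CPM above 1 in at least 4 libraries, limma-voom with sample weights, a replicate block, each library left out, near-identical libraries summed and, added after the data were seen, WT3 and WT4 left out together.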

Additional observations from a re-analysis of the deposited data

Results flagged for a closer look

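Samples far from the others were sought in the 8 members and the other named genes, within each genotype, in 38 groups of 4 libraries. Chance marks about 1 in 20 groups of 4 independent libraries, and this rate need not hold here, where some libraries were near-identical. Both of the 2 that stood apart were in WT3 and on chromosome 6. The 713 tested genes of that chromosome outside the members had a median log2 offset of −0.09 in WT3 from the other WT libraries. *Tgfa* was at −0.593 log2 CPM in WT3 against 3.16 to 3.52 in the other WT libraries, from 10 counts. *Eps8* was at 6.28 log2 CPM in WT3 against 7.16 to 7.25 in the other WT libraries, from 1355 counts.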

How the results depend on the processing

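The calls depended on how the near-identical libraries were treated. With all 8 libraries, 1716 genes, 1 member and 6 other pathway genes were called, and with near-identical libraries summed these were 0, 0 and 0. DESeq2 called 2913 genes and 2 members (*Ereg*, *Erbb3*), and limma-voom with sample weights 3573 genes, 4 members and 15 pathway genes. No member was called without a filter on low counts (0), or at CPM above 1 in at least 4 libraries (0), where *Erbb3* was not tested. Leaving out each library in turn gave 507 to 2192 genes, 0 to 3 members (3 without WT3, 2 without WT4, 0 otherwise) and 2 to 9 pathway genes (2 without HOMO1 or HOMO2, 9 without WT3). Without both WT3 and WT4, an alternative added after the data were seen, 3117 genes, 5 members and 15 pathway genes were called. Same-numbered WT and HOMO libraries correlated at −0.124 to 0.0141 in their deviations from the group means, so the numbers do not pair them, and a fit with the replicate block called 947 genes, 0 members and 4 pathway genes. The fold change of *Nrg2* changed sign with limma-voom (−0.26), and, among fits without 1 library (−0.22 to 0.35), without WT4 (−0.11) and without HOMO2 (−0.22). Of 320 comparisons of 19 named genes with their alternatives, 270 kept direction and call, 14 gained and 33 lost the call, and 3 changed sign. The cause was not tested. *Erbb3* rests on 5 to 35 counts a library, and *Areg* could not be compared at this depth.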
